A study of Mus musculus with 11 samples.

Results

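Collagen genes were examined in mouse mammary tumour cells at 3 stages of a cancer that the oncogene Wnt1 can be switched on and off in. A collagen gene was any row of the deposited expression table whose gene symbol, reached through its Entrez Gene identifier, is Col, a number, the letter a and a number. That gave 44 genes among 23835 named genes, each read by 1 probe set. The measured cells carry MMTV-rtTA;TetO-Wnt1, so that doxycycline induces Wnt1 in cells where the MMTV promoter, active mainly in mammary epithelium, drives the transactivator. They also carry H2B-eGFP, a green fluorescent histone by which they were told from host cells. The title of the series calls them Wnt1-Prim1, and whether they are a single clone is not given in the labels. All groups were grown at the mammary site of female nu/nu mice, which lack a thymus and mature T cells but keep other host cells. The primary group (4 arrays) came from tumours on doxycycline, labelled untreated. The residual group (3 arrays) came from lesions left 28 days after doxycycline was withdrawn, and the recurrent group (4 arrays) from tumours that had come back after withdrawal, both labelled as Wnt1 inhibition. The age of the mice and the time to recurrence are not in the labels.

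Collagens are secreted or membrane-bound proteins whose chains wind into a triple helix, built on a repeat of glycine in the helical part. Fibril-forming collagens make the tensile fibres of stroma, network collagens make sheets such as the basement membrane under epithelium, collagen VI makes beaded filaments around cells, and transmembrane collagens sit in the plasma membrane. In the mammary gland fibroblasts are known as the main source of fibrillar collagen, and epithelial and myoepithelial cells contribute to the basement membrane. In mammary tumours, dense and cross-linked fibrillar collagen is a familiar feature of stiff stroma.

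Each value is a log2 signal, on which a step of 1 is a doubling. A signal near background was judged from 1066 olfactory receptor genes, which mammary cells are not known to use. The 95th percentile of that class was 3.96 to 4.02 on the primary arrays, 4.34 to 4.38 on the residual arrays and 4.03 to 4.09 on the recurrent arrays. Whether the arrays within a group stand for different mice is not in the labels, so p-values speak only of array-to-array spread, possibly technical. RNA was measured in bulk, where fewer cells of a type and less RNA per cell cannot be told apart. The labelled tumour cells read high for the keratins Krt8 (group means of 10.08, 8.41 and 9.78 for primary, residual and recurrent arrays) and Krt18 (10.42, 8.09 and 9.84), whereas Epcam, an adhesion protein of most epithelia, lay below that percentile in primary and recurrent cells (3.29 and 3.41) and had a mean of 4.62 on the residual arrays, with a range of 3.47 to 6.29. Vim, the filament protein vimentin of mesenchymal and some tumour cells, read 12.90, 12.31 and 12.81.

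Some collagen genes differed between the stages, and most did not pass in any comparison. Of the 44 genes 12 passed the test in at least 1 comparison and 32 passed in none. The share of all genes that passed in at least 1 comparison was not counted. In residual against primary cells 10 were higher and 1 was lower (25.0% called, beside 12.4% of all genes). In recurrent against primary cells 4 were higher and 0 lower (9.09%, beside 1.8% of all genes). In recurrent against residual cells 2 were higher and 3 lower (11.4%, beside 5.78% of all genes). Above background, 29 collagens in primary cells, 30 in residual cells and 32 in recurrent ones had a group mean over the olfactory 95th percentile. For 10 of the 44 they lay at or below it in every group: Col4a3, Col4a4, Col6a4, Col6a5, Col6a6, Col19a1, Col22a1, Col24a1, Col25a1 and Col28a1.

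The promoters of members that moved together, of the collagen VI chains and of the collagen that moved the other way are shown first, as the sequence context of the results that follow. RefSeq promoters (GRCm38.p6) were found for 35 of the 44 genes. Each line gives the 150 bases that precede the annotated start farthest upstream, 5′ to 3′, and capitals mark 3 short motifs on either strand: the letters CCAAT of the CCAAT box, the letters TATAAA of the TATA box and the letters GGGCGG of the GC box. They do not overlap one another in these windows.
Col1a2 (chr6:4505468-4505617, plus strand): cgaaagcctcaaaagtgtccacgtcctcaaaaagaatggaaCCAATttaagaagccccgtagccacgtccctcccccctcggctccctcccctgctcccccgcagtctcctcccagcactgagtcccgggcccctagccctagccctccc
Col3a1 (chr1:45311388-45311537, plus strand): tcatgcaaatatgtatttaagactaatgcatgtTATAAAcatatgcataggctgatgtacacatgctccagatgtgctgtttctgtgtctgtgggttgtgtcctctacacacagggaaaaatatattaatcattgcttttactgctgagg
Col6a1 (chr10:76726045-76726194, minus strand): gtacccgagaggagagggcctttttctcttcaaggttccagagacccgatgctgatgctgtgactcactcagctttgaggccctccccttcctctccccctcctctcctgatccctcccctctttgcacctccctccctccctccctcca
Col6a2 (chr10:76623631-76623780, minus strand): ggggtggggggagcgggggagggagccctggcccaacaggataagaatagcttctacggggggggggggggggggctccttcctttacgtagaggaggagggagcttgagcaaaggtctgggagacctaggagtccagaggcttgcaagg
Col6a3 (chr1:90843972-90844121, minus strand): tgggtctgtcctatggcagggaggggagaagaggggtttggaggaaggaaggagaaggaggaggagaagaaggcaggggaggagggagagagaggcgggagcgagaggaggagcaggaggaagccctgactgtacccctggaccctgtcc
Col18a1 (chr10:77166531-77166680, minus strand): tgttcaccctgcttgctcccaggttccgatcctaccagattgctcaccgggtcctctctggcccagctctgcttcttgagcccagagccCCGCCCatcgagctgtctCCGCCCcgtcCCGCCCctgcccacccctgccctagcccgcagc

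The motif CCAAT stood once before Col1a2 and TATAAA once before Col3a1, while GGGCGG stood 3 times before Col18a1, read on the other strand as CCGCCC. None of these motifs stood in the windows of Col6a1, Col6a2 and Col6a3. Among all 27026 promoters of this length CCAAT was found in 25.3%, TATAAA in 8.08% and GGGCGG in 29.0%, and among the 35 collagen promoters in 20.0%, 11.4% and 51.4%. A match describes letters in the window and not a bound site.

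The first comparison asked how cells that survived withdrawal differed from the growing primary tumour. Residual cells had more RNA of the fibrillar collagens Col3a1, Col1a1, Col1a2 and Col5a2, of the minor fibrillar chain Col11a1, of the fibril-associated Col12a1, of the collagen VI chains Col6a1 and Col6a2, of Col8a1 and of the transmembrane Col23a1. The rises ran from 1.94-fold for Col8a1 to 16.0-fold for Col3a1. Col18a1, the basement membrane collagen that holds endostatin, fell 2.72-fold. In limma 11 of 44 collagens (25.0%) passed at an adjusted p under 0.05, beside 12.4% of all genes tested, with 4.81% of all genes higher and 7.61% lower. The median difference was 0.19 over the collagens and 0.03 over all named genes. Positive differences were found for 32 of the 44 collagens, beside 12849 of all 23835 genes. The olfactory 95th percentile was also higher on the residual arrays (4.34 to 4.38) than on the primary arrays (3.96 to 4.02). The part of that shift in the small positive differences was not tested. For 18 of the 44 collagens the residual and primary ranges were separate, a larger share than the 24.8% of all genes.

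**Figure D1:**
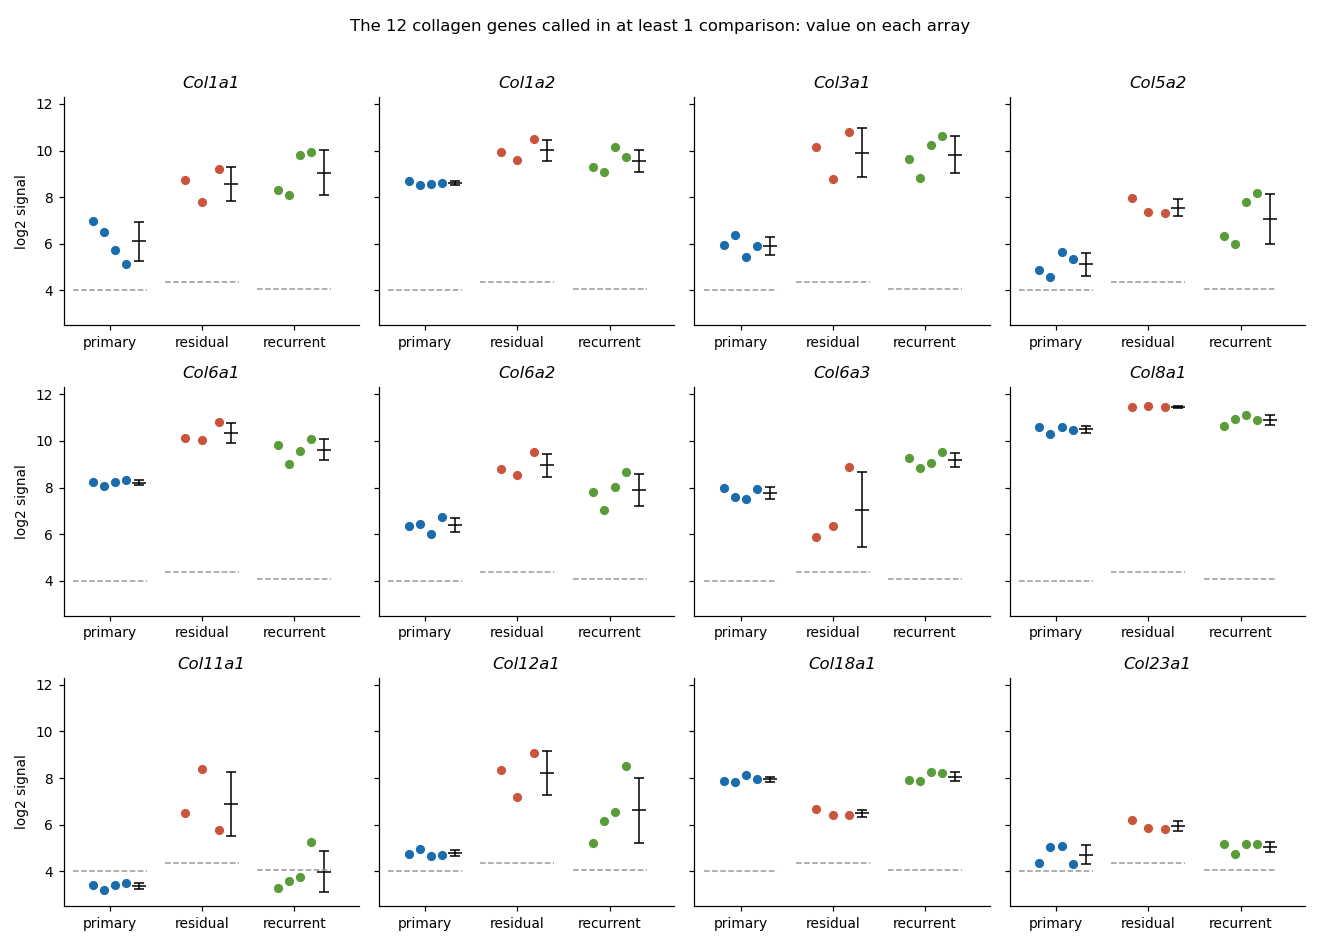
Log2 signal of the 12 collagen genes that passed in at least 1 comparison, with 1 point per array for 4 primary, 3 residual and 4 recurrent arrays, group mean and SD as black bars, and the mean 95th percentile of olfactory receptor genes as dashed lines. Residual points lie above all primary points for 10 of the genes and below them for Col18a1, and the 3 residual points of Col6a3 spread from 5.89 to 8.88.

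Collagens III and I form the bulk of fibres in soft and stiff connective tissue. Col3a1, the only chain of collagen III, read 5.93, 6.37, 5.43 and 5.92 on the primary arrays, 10.17, 8.77 and 10.80 on the residual arrays, and 9.64, 8.80, 10.22 and 10.62 on the recurrent arrays. Every residual and recurrent array lay above every primary array, and the residual and recurrent ranges overlapped. The rise was 4.00 in residual (SE 0.49, adjusted p = 0.000306 in limma) and 3.90 in recurrent cells (SE 0.45, adjusted p = 0.00115), while recurrent and residual cells differed by -0.10 (95% interval -1.16 to 0.97). Col1a1, the chain present in 2 copies in collagen I, read 6.99, 6.52, 5.74 and 5.13 on the primary, 8.72, 7.78 and 9.19 on the residual, and 8.31, 8.11, 9.82 and 9.95 on the recurrent arrays. Its primary arrays were spread widely but lay below all others. The differences from primary cells were 2.47 in residual (SE 0.56, adjusted p = 0.0136) and 2.95 in recurrent cells (SE 0.52, adjusted p = 0.0156). Leaving out residual 3 ended the residual call (adjusted p = 0.0599), and the recurrent call was lost without primary 3 (0.0546) or primary 4 (0.0520).

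Col1a2, the partner chain of Col1a1, had a narrow range in primary cells. It read 8.70, 8.52, 8.56 and 8.61 there, 9.95, 9.60 and 10.50 on the residual arrays, and 9.30, 9.07, 10.16 and 9.71 on the recurrent arrays. The groups did not overlap with primary, and the 2 later groups overlapped with each other. The residual rise of 1.42 passed (SE 0.26, adjusted p = 0.00429), and the recurrent difference of 0.96 did not (SE 0.24, adjusted p = 0.0757), though it did with the values quantile-normalized again (0.0477), with array weights (0.0493) or without recurrent 2 (0.0426).

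Collagen V starts and narrows collagen I fibrils, and Col5a2 is one of its chains. Col5a2 read 4.88, 4.57, 5.65 and 5.33 on the primary, 7.98, 7.35 and 7.31 on the residual, and 6.35, 5.97, 7.78 and 8.18 on the recurrent arrays. The recurrent arrays 3 and 4 were as high as the residual arrays, and recurrent 1 and 2 lay between the residual and the primary range. The rise in residual cells was 2.44 (SE 0.48, adjusted p = 0.00694). In recurrent cells the difference of 1.96 did not pass (SE 0.45, adjusted p = 0.0541), and it passed in 6 of 19 other settings: without recurrent 1 (0.0489) or recurrent 2 (0.0193), with dim genes left out (0.0340), with trend and robust variances (0.0480), with array weights (0.0474) and with a replicate block (0.0409). Its chain partner Col5a1 differed by 0.80 in residual cells (SE 0.27, adjusted p = 0.0807) and by 0.26 in recurrent cells, and the former passed without recurrent 4 (0.0376), with only those groups in the fit (0.0191) and with a replicate block (0.0280). Col5a3, the third chain, differed by -0.32 and -0.31 without passing. Col3a1 and Col5a2 are neighbours on chromosome 1, with no protein-coding gene between them.

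Col11a1 encodes a chain of collagen XI, a minor fibrillar collagen of cartilage that is also known from activated tumour stroma. It read 3.42, 3.20, 3.41 and 3.50 on the primary arrays, 6.50, 8.39 and 5.75 on the residual arrays, and 3.29, 3.60, 3.77 and 5.27 on the recurrent arrays. All primary arrays and recurrent 1, 2 and 3 lay inside the olfactory range, so the change was measured from a background level and its size is uncertain. Residual cells were higher by 3.50 than primary cells (SE 0.56, adjusted p = 0.00204), and recurrent cells lower by 2.90 than residual cells (SE 0.56, adjusted p = 0.0119, but 0.0714 with only those groups in the fit). The second chain, Col11a2, differed by 0.15 in residual cells, and the cartilage collagen Col2a1 by -0.41, neither passing; Col2a1 passed without residual 1, at -0.61 (adjusted p = 0.0184). Col24a1 and Col27a1, the other fibril-forming genes, differed by 0.33 and -0.04. In all 5 of 11 fibril-forming genes rose in residual cells, with a median of 0.80 over the 11.

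Fibril-associated collagens decorate the surface of fibres. Col12a1, of tendon and loaded tissue, read 4.76, 4.97, 4.67 and 4.71 on the primary, 8.35, 7.20 and 9.07 on the residual, and 5.22, 6.16, 6.55 and 8.53 on the recurrent arrays. Primary arrays were the lowest and nearly equal, residual arrays were high, and the recurrent arrays filled the range between, with recurrent 4 inside the residual range. The residual rise was 3.43 (SE 0.63, adjusted p = 0.00459), and the recurrent difference from primary cells was 1.84 (SE 0.59, adjusted p = 0.162). Recurrent and residual cells differed by -1.59 (adjusted p = 0.185), and by -2.23 without recurrent 4, which passed (0.0153). Col14a1, a collagen of the same subgroup, had means of 3.80, 5.98 and 4.86 across the primary, residual and recurrent groups and SDs of 0.21, 2.01 and 0.58. Its residual mean rested on residual 3 at 8.29 beside 5.08 and 4.58, and the difference of 2.18 did not pass (adjusted p = 0.0636). It passed without residual 2 (2.88, adjusted p = 0.0254), with dim genes left out (0.0422) and with array weights (0.0382), and did not pass without residual 3 (1.03, adjusted p = 0.0759). The filter on dim genes kept Col14a1 through residual and recurrent arrays, since its primary mean lay below the olfactory percentile. A pass in that setting is therefore no separate support. The other 7 genes of this class, Col9a1, Col9a2, Col9a3, Col16a1, Col19a1, Col20a1 and Col22a1, differed by -0.07 to 0.99 in residual cells and none passed.

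Collagen VI forms beaded filaments near the cell surface from the chains encoded by Col6a1, Col6a2 and Col6a3, and the third chain is known to be needed for assembly. Col6a1 read 8.22, 8.06, 8.25 and 8.33 on the primary, 10.13, 10.05 and 10.83 on the residual, and 9.81, 9.02, 9.58 and 10.09 on the recurrent arrays. Col6a2 read 6.33, 6.44, 6.01 and 6.73, then 8.81, 8.55 and 9.51, then 7.81, 7.03, 8.02 and 8.69 on the same arrays. Both chains were higher on every residual and recurrent array than on any primary array, and the later groups overlapped. In residual cells Col6a1 rose by 2.12 (SE 0.25, adjusted p = 0.000219) and Col6a2 by 2.58 (SE 0.34, adjusted p = 0.000602). In recurrent cells Col6a1 rose by 1.41 (SE 0.23, adjusted p = 0.00988) and Col6a2 by 1.51 (SE 0.32, adjusted p = 0.0387). Col6a2 no longer passed in recurrent cells without primary 1 (adjusted p = 0.108), primary 2 (0.0949), primary 3 (0.114), primary 4 (0.0689), residual 1 (0.0567), recurrent 1 (0.0694), recurrent 3 (0.0866) or recurrent 4 (0.0693). That call was also lost with only those groups in the fit, so it failed in 9 of 19 settings. Col6a1 and Col6a2 are neighbours on chromosome 10 with no protein-coding gene between them, and Col6a3 lies on chromosome 1.

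Col6a3 had another pattern. It read 8.00, 7.59, 7.53 and 7.96 on the primary arrays, 5.89, 6.36 and 8.88 on the residual arrays, and 9.28, 8.84, 9.06 and 9.52 on the recurrent arrays. Residual 1 and 2 lay below all primary arrays, residual 3 lay above them and inside the recurrent range, and 3 recurrent arrays lay above every residual array. The residual difference of -0.72 did not pass (SE 0.54, adjusted p = 0.456) and was -1.64 without residual 3 (adjusted p = 0.00166). Recurrent cells were higher than residual cells by 2.13 (SE 0.54, adjusted p = 0.0419) and by 3.05 without residual 3 (adjusted p = 5.65e-05). That call was lost, with values from 1.55 to 2.24, when any other single array was left out (adjusted p = 0.0601 to 0.144). Recurrent and primary cells differed by 1.41 (SE 0.50, adjusted p = 0.219), and the same difference passed without residual 3 (adjusted p = 0.00406) and with only those groups in the fit (0.00636).

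The level of Col6a3 relative to its partners was examined after these values had been seen, and is given as a description. The signal of Col6a3 minus that of Col6a1 was -0.45 ± 0.21 on primary, -3.29 ± 1.20 on residual and -0.45 ± 0.18 on recurrent arrays (mean ± SD, n = 4, 3 and 4), a quantity whose changes between groups can be compared though its level cannot. The residual and primary values differed by -2.85, and the recurrent and primary values by 0.00. Relative to Col6a2 the residual difference from primary arrays was -3.30 and the recurrent one -0.10. With 4 against 3 arrays an exact permutation test cannot go below p = 0.0571, so none is used here. The other beaded filament genes, Col6a4, Col6a5 and Col6a6, stayed at 2.63 to 3.65 on every array.

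**Figure D2:**
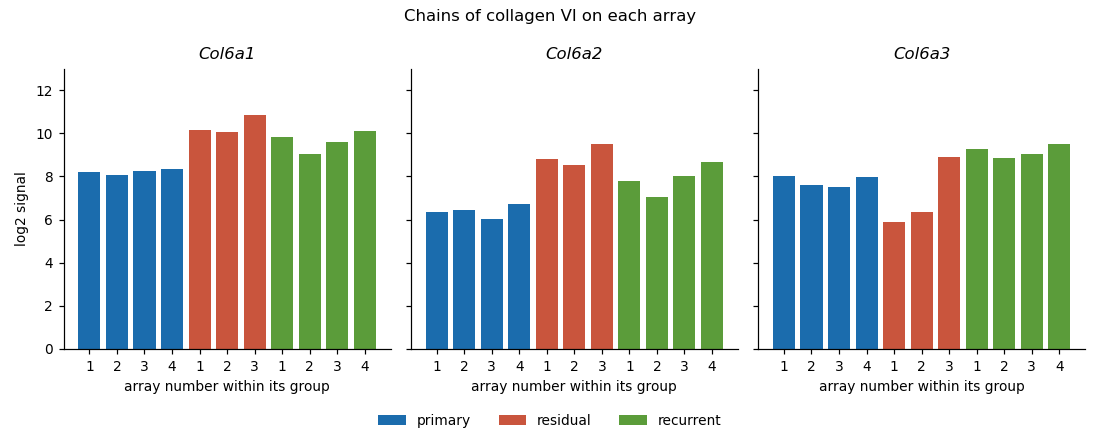
Log2 signal of Col6a1, Col6a2 and Col6a3 (bars from 0) on each of 11 arrays, coloured by group and numbered within it. The bars of Col6a1 and Col6a2 are taller on all residual arrays than on any primary array, while those of Col6a3 are shorter on residual 1 and 2 (5.89 and 6.36) and taller on residual 3 (8.88).

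Col18a1 was the only collagen called lower in residual cells. Collagen XVIII is a multiplexin, a basement membrane collagen with heparan sulphate chains, and its end is released as endostatin. Col18a1 read 7.88, 7.82, 8.11 and 7.95 on the primary, 6.66, 6.40 and 6.42 on the residual, and 7.90, 7.88, 8.25 and 8.22 on the recurrent arrays. Residual arrays lay apart below both other groups, whose ranges overlapped. The fall was 1.44 (difference -1.44, SE 0.14, adjusted p = 6.76e-05), and recurrent cells were higher than residual cells by 1.57 (SE 0.14, adjusted p = 6.69e-05). Recurrent and primary cells differed by 0.12 (95% interval -0.16 to 0.41, adjusted p = 0.771). Col15a1, the other multiplexin, had means of 4.08, 4.17 and 4.09, close to the olfactory percentile. Col18a1 lies on chromosome 10 with 2 protein-coding genes between it and Col6a1, which moved the other way in residual cells.

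None of the 6 collagen IV genes passed in any comparison. Collagen IV builds the basement membrane from heterotrimers, of which Col4a1 and Col4a2 encode the common form. Col4a1 read 6.85, 6.25, 6.64 and 6.47 on the primary, 7.05, 6.64 and 7.35 on the residual, and 6.59, 6.66, 6.49 and 7.56 on the recurrent arrays. Col4a2 read 5.69, 5.48, 5.68 and 5.63, then 5.89, 5.88 and 5.95, then 5.68, 5.27, 5.59 and 6.83. Recurrent 4 was the highest array of its group for both, and the residual arrays of Col4a2 lay just above the primary arrays and above recurrent 1, 2 and 3. The residual differences were 0.46 for Col4a1 (95% interval -0.12 to 1.04) and 0.29 for Col4a2 (-0.34 to 0.91), and the recurrent ones 0.27 and 0.22. Col4a5 and Col4a6, which lie side by side on the X chromosome, were both highest on recurrent 1, at 6.76 and 7.20, and both lowest among the recurrent arrays on recurrent 4, at 5.55 and 5.09. In contrast to these shifts on single arrays, Col4a3 and Col4a4 stayed at background.

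Col8a1 encodes a chain of collagen VIII, a short-chain network collagen of vessel wall and Descemet's membrane. It was among the bright members at 10.32 to 10.62 on primary, 11.44 to 11.51 on residual and 10.64 to 11.13 on recurrent arrays. The groups followed one another without overlap. The residual rise was 0.96 (SE 0.14, adjusted p = 0.000933), and recurrent cells were lower than residual cells by 0.55 (SE 0.14, adjusted p = 0.0371). The second difference no longer passed without primary 1 (adjusted p = 0.0531), primary 3 (0.0542), primary 4 (0.0571), residual 1 (0.0843), residual 2 (0.102), residual 3 (0.0829), recurrent 1 (0.0723), recurrent 2 (0.0625) or recurrent 4 (0.0692). Its partner chain Col8a2, near background, differed by 0.45 in residual cells and did not pass. Col10a1, of growth plate cartilage, had means of 3.62, 4.10 and 4.16 and differed by 0.48 (adjusted p = 0.0517) and 0.54 (adjusted p = 0.0768) from primary cells; the first passed without recurrent 4 (0.0466), with only those groups in the fit (0.0468) and with array weights (0.0488), and the second with array weights (0.0496).

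Among the transmembrane collagens, which have a single membrane-spanning part and can be shed, Col23a1 was the member called. It read 4.37, 5.05, 5.08 and 4.32 on the primary, 6.18, 5.84 and 5.81 on the residual, and 5.16, 4.74, 5.17 and 5.15 on the recurrent arrays. Residual arrays lay above all others. The residual rise was 1.24 (SE 0.22, adjusted p = 0.00328), and recurrent cells were lower than residual cells by 0.88 (SE 0.22, adjusted p = 0.0345). The latter no longer passed when residual 1 was left out (adjusted p = 0.120), nor without residual 2 (0.0731), residual 3 (0.0633), recurrent 1 (0.0537), recurrent 2 (0.0768), recurrent 3 (0.0571) or recurrent 4 (0.0573).

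Col17a1, the hemidesmosome collagen of basal epithelium, read 4.48, 4.48, 4.49 and 4.80 on the primary, 4.49, 4.48 and 4.30 on the residual, and 4.38, 4.38, 4.48 and 4.58 on the recurrent arrays. It stayed just above the olfactory percentile on most arrays, with differences of -0.14 and -0.11 from primary cells that did not pass. Col7a1, which makes the anchoring fibrils below the epithelial basement membrane, read 5.98, 5.65, 6.29 and 6.26 on the primary, 5.88, 5.09 and 5.56 on the residual, and 4.74, 5.59, 6.49 and 7.28 on the recurrent arrays. Its recurrent arrays covered more than the whole range of the other groups, and no comparison passed. Col13a1 and Col25a1, the other transmembrane members, and Col26a1 and Col28a1 differed by -0.22 to 0.25 in residual cells without passing.

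**Figure D3:**
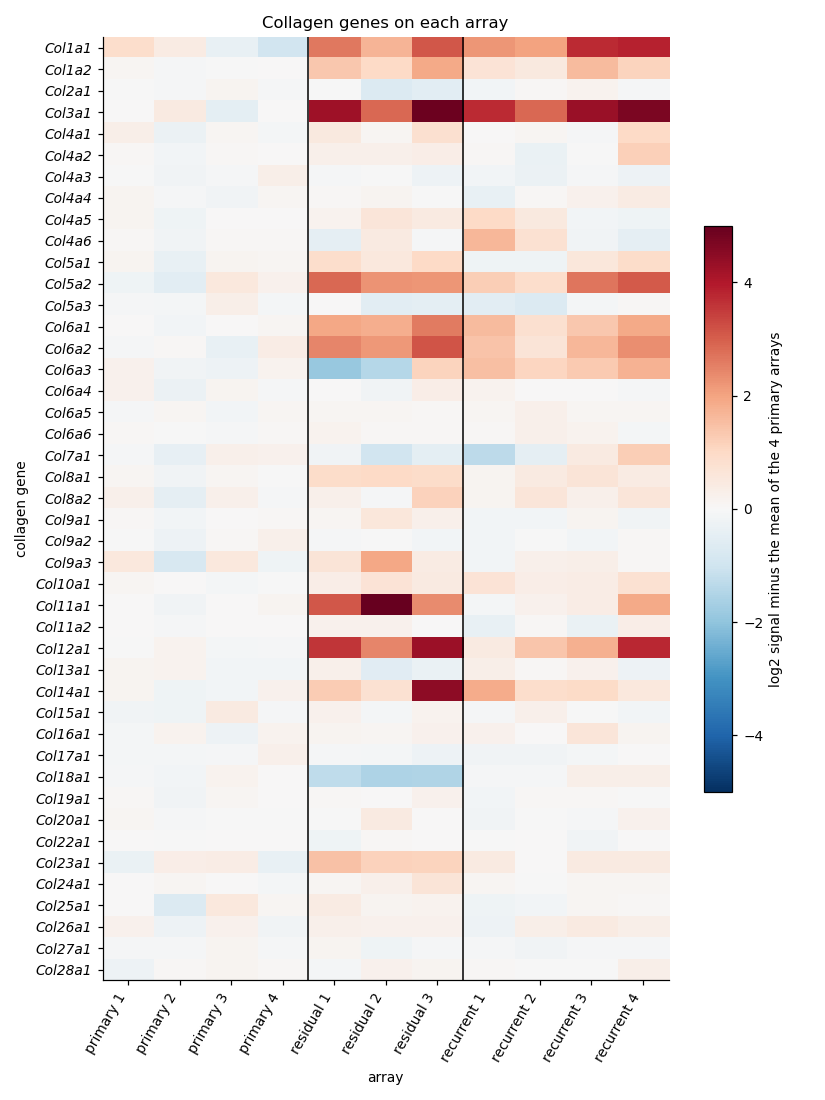
Log2 signal of all 44 collagen genes (rows) on the 11 arrays (columns) minus the mean of the 4 primary arrays, with red above and blue below it; vertical lines part the groups. Rows that are red on all residual arrays include Col3a1, Col1a1, Col5a2, Col6a1, Col6a2, Col11a1 and Col12a1, and Col11a1 is near its primary level on recurrent 1, 2 and 3.

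The second comparison asked how recurrent tumours differed from the primary tumours. Recurrent cells had more Col3a1, Col1a1, Col6a1 and Col6a2 than primary cells. Of these calls that of Col6a2 was lost in 9 of 19 settings and that of Col1a1 in 2. No collagen was called lower. Thus 4 of 44 collagens (9.09%) passed, beside 1.8% of all genes, of which 0.818% were higher and 0.986% lower. For 11 of the 44 collagens the recurrent and primary ranges were separate, a larger share than the 9.02% of all genes. The median difference was 0.13 over the collagens and -0.01 over all named genes. In limma 10 of the 44 collagens were higher and 0 lower at an unadjusted p under 0.05. The share of all genes at that unadjusted threshold was not counted. This comparison shares its primary arrays with the first, so the members called in both are no independent evidence of each other.

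The third comparison set recurrent against residual cells. It shares its residual arrays with the first comparison and its recurrent arrays with the second. Calls of a member in more than 1 comparison are thus no independent evidence of each other. Col18a1 and Col6a3 were called higher and Col11a1, Col23a1 and Col8a1 lower in recurrent cells, with the values given above. Only the Col18a1 call stayed in all 19 settings. The Col6a3 call was lost in 15 of them, that of Col8a1 in 12, of Col23a1 in 9 and of Col11a1 in 1. These 5 of 44 collagens (11.4%) stood beside 5.78% of all genes, with 3.58% higher and 2.19% lower. For 7 of the 44 collagens the ranges were separate, a share near the 15.5% of all genes. The median difference was -0.07 over the collagens and -0.03 over all genes. The main fibrillar chains did not pass: Col3a1 differed by -0.10 (95% interval -1.16 to 0.97), Col1a1 by 0.49 (-0.73 to 1.71), Col1a2 by -0.46 (-1.02 to 0.11) and Col5a2 by -0.48 (-1.54 to 0.58). These intervals leave room for differences of over 2-fold in at least 1 direction for each of the 4 genes, so the test does not show that the levels were equal.

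**Figure D4:**
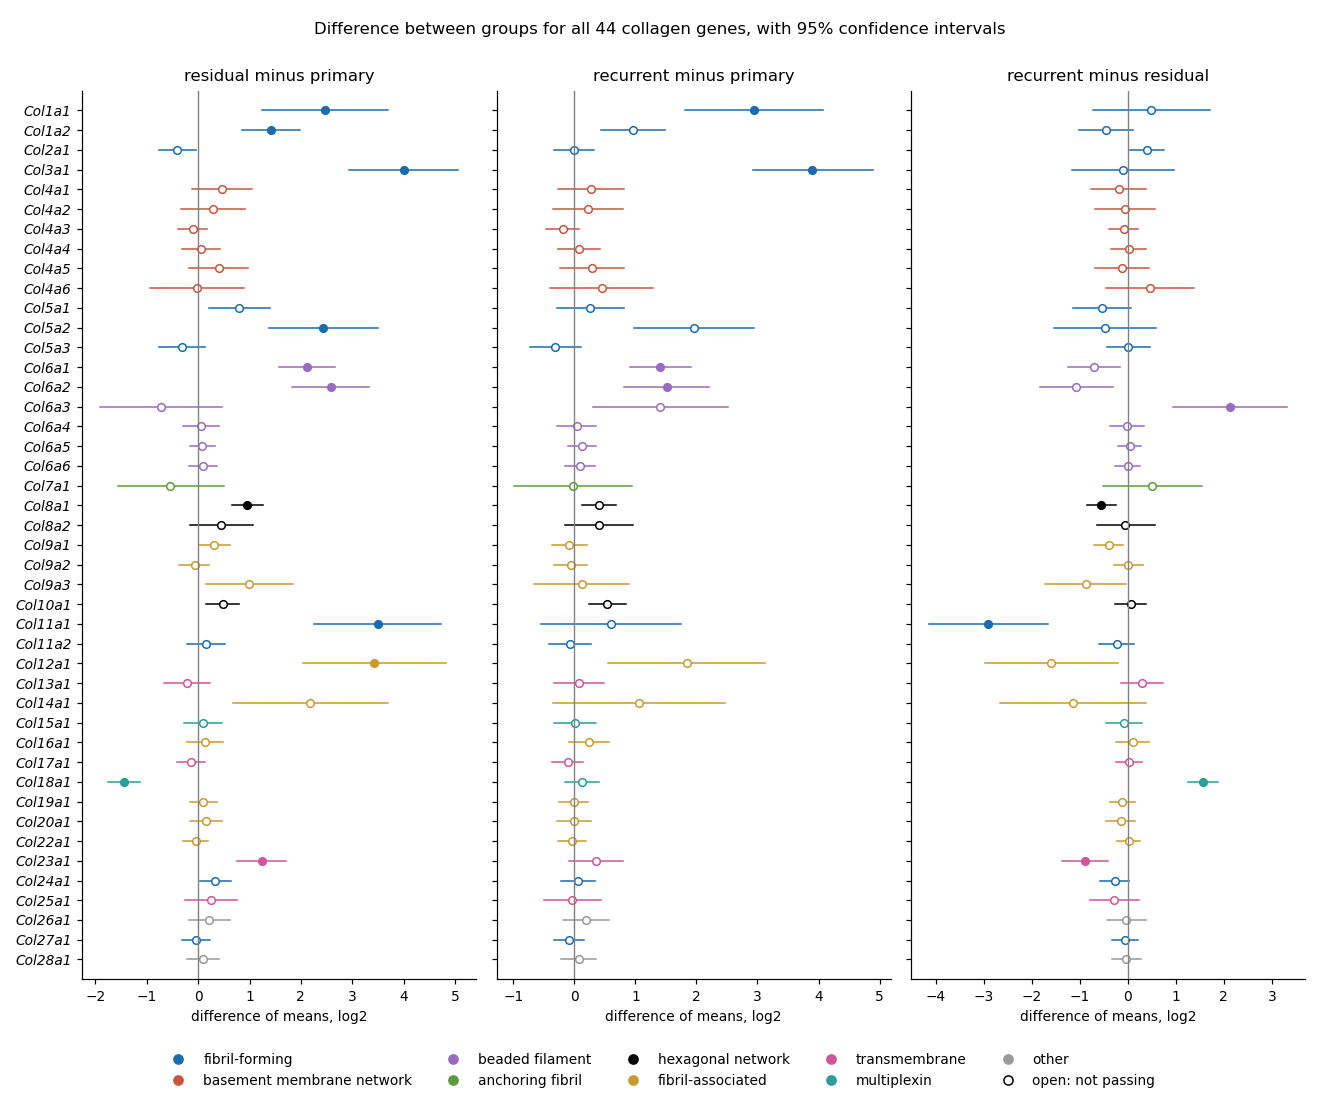
Difference of group means on the log2 scale with its 95% confidence interval for all 44 collagen genes in each of 3 comparisons, coloured by class, with filled points at an adjusted p under 0.05. Filled points lie to the right of 0 for 10 genes and to the left for Col18a1 in residual minus primary cells.

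The median SD over all 44 collagens was 0.16 on primary, 0.24 on residual and 0.24 on recurrent arrays, beside 0.20, 0.22 and 0.23 for all named genes. Within the recurrent group the arrays did not share one order. Recurrent 3 and 4 were the higher pair for Col1a1, Col3a1, Col5a2, Col12a1 and Col7a1, whereas recurrent 1 and 2 were the higher pair for Col4a5 and Col4a6. No test was made of such a split, since it would group arrays by the measured outcome.

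Genes that fold, export, cross-link, bind and break down collagen were counted from fixed lists, to be read against 12.4% of all genes called in residual against primary cells (4.81% higher, 7.61% lower) and 1.8% in recurrent against primary cells. Of 19 measured genes of folding and modification 3 rose, 2 fell and 14 did not pass in residual cells (26.3% called, median 0.00, beside 0.03 for all genes). P4ha1, a prolyl 4-hydroxylase subunit, fell by 1.25 (adjusted p = 0.0117), and recurrent cells were higher in it than residual cells by 1.11 (adjusted p = 0.0372). Fkbp14, a prolyl isomerase of the endoplasmic reticulum, rose by 1.05 (adjusted p = 0.0125). P3h4 and P3h3, of the complexes that modify proline and lysine, rose by 1.45 and 0.88 (adjusted p = 0.0148 and 0.0150). Of these, P3h3 was named after its values were seen. Plod3, a lysyl hydroxylase, was lower by 0.71 in residual and by 0.72 in recurrent cells than in primary cells (differences -0.71 and -0.72, adjusted p = 0.0179 and 0.0455). It was the only gene of this list called in recurrent against primary cells. Serpinh1, the collagen chaperone, also named after the fact, differed by -0.01 in residual cells (adjusted p = 0.993).

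Of 13 genes of procollagen export and processing 2 rose, 2 fell and 9 did not pass in residual cells. Thus 30.8% were called, beside 12.4% of all genes. In recurrent against primary cells 0 passed in limma, with 2 higher and 2 lower at an unadjusted p under 0.05. The share of all genes at that unadjusted threshold was not counted. Creb3l1, a transcription factor of the secretory pathway known to act on collagen I genes, went from 7.82 ± 0.05 in primary (mean ± SD, n = 4) to 9.05 ± 0.24 in residual cells (n = 3) and read 8.10 ± 0.35 in recurrent cells (n = 4). Its residual rise was 1.23 (adjusted p = 0.00131), and recurrent cells were lower than residual cells by 0.95 (adjusted p = 0.0122). The procollagen N-proteinases moved apart. Adamts2 rose by 1.35 (adjusted p = 0.0148), while Adamts14 went from 5.89 ± 0.10 to 4.21 ± 0.45 and read 5.88 ± 0.15 in recurrent cells (adjusted p = 0.000172 and 0.000328 for the fall and for recurrent against residual cells). Pcolce2, an enhancer of C-proteinase, fell by 1.09 (adjusted p = 0.0317).

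Of the 5 lysyl oxidase genes, which cross-link collagen and elastin, 2 rose, 2 fell and 1 did not pass in residual cells, where 12.4% of all genes were called. Loxl1 rose by 1.27 (adjusted p = 0.00784) and Lox by 0.69 (adjusted p = 0.0165). Loxl3 fell by 0.73 (adjusted p = 0.00269) and Loxl4 by 0.88 (adjusted p = 0.0138). In recurrent cells Loxl1 was higher and Loxl4 lower than in primary cells, by 1.09 and 0.91 (differences 1.09 and -0.91, adjusted p = 0.0446 and 0.0321), while Lox and Loxl3 differed from primary cells by -0.12 and 0.04 and did not pass.

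Among 11 collagen receptors 3 rose, 1 fell and 7 did not pass in residual cells (36.4% called, beside 12.4% of all genes). Itga11, the integrin chain of mesenchymal cells that binds fibrillar collagen, went from 4.08 ± 0.40 on primary to 7.66 ± 0.62 on residual and 6.02 ± 0.62 on recurrent arrays (adjusted p = 8.73e-05 and 0.0148 against primary cells, and 0.0232 for recurrent against residual cells). Itga2, the epithelial collagen-binding integrin chain, fell by 1.59 (adjusted p = 0.00877). Adgrg1, an adhesion receptor for collagen III, rose by 1.46 (adjusted p = 0.00890) and was lower in recurrent than in residual cells by 1.67 (difference -1.67, adjusted p = 0.00833). Mrc2, an endocytic collagen receptor named after its values were seen, rose by 0.55 (adjusted p = 0.0186). Ddr2, a receptor tyrosine kinase for fibrillar collagen, read 4.30 ± 0.44 on primary arrays, 4.85 ± 0.52 on residual arrays and 7.62 ± 0.94 on recurrent arrays. Its recurrent level passed against both other groups (adjusted p = 0.00198 and 0.00419), and its residual level did not pass against primary cells (adjusted p = 0.499).

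Of 8 genes of collagen breakdown 1 rose in residual cells (12.5%, near the 12.4% of all genes called) and 2 in recurrent cells against primary cells (25.0%, beside 1.8% of all genes). Mmp2, a gelatinase, rose by 3.13 in residual and by 2.21 in recurrent cells (adjusted p = 0.000141 and 0.00463). Mmp9, the other gelatinase, was higher in recurrent cells by 1.36 than in primary and by 1.90 than in residual cells (adjusted p = 0.0112 and 0.000804).

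Markers of fibroblasts differed between the same groups. Over 21 fibroblast markers that are no collagens, the mean log2 signal was 6.70 to 7.01 on primary, 7.99 to 8.64 on residual and 7.75 to 8.18 on recurrent arrays. In residual cells 10 of the 21 rose and 1, Vim, fell, where 4.81% of all genes were higher and 7.61% lower. In recurrent cells 7 rose and 0 fell against primary cells, where 0.818% of all genes were higher and 0.986% lower. In recurrent against residual cells 1 (Vim) was higher and 3 (Pi16, Fbln1 and Fbln2) were lower, beside 3.58% and 2.19% of all genes. Loxl1 is counted here and among the cross-linking genes. Pdgfrb, a receptor of stromal cells, rose by 2.82 and 2.29 against primary cells (adjusted p = 5.74e-07 and 8.81e-06), and Dpt, the matrix protein dermatopontin, by 5.08 and 5.14 (adjusted p = 0.000309 and 0.000955). Dpp4, Tcf21 and Fap, also on this list, had means of 2.60 to 3.91 in every group, below the olfactory percentile. Of 11 macrophage and monocyte markers 5 fell in residual cells and 1 in recurrent cells (7.61% and 0.986% of all genes were lower), with list means of 6.02 to 6.71 on primary, 4.97 to 5.71 on residual and 5.46 to 6.44 on recurrent arrays. Those called were Cd14, Itgam, Fcgr1, C1qb and C1qc in residual cells and Cd14 in recurrent cells. Pericyte and smooth muscle markers (10 genes) had 0 called in any comparison in limma. At an unadjusted p under 0.05, 2 were higher in each later group against primary cells and 1 was lower in recurrent against residual cells. The share of all genes at that unadjusted threshold was not counted. Among the 10 genes, Acta2 was higher than in primary cells by 2.45 in residual and by 2.88 in recurrent cells (adjusted p = 0.102 and 0.121). Its residual and recurrent ranges were separate from the primary range, and its SD was 0.11 on primary, 0.40 on residual and 2.25 on recurrent arrays. The median difference from primary cells over the 10 genes was 0.14 in residual and 0.13 in recurrent cells. Endothelial markers (12 genes) had 1 called higher, Erg, in residual cells, with list means of 3.43 to 3.98 on all arrays. Of that list Cdh5 read 10.13 on recurrent 3 and 4.66 to 5.09 on the other recurrent arrays, and it did not pass in any comparison. Lymphocyte and skeletal muscle markers had 0 called in limma. At an unadjusted p under 0.05 in that fit, residual cells had 2 lymphocyte markers higher and 1 lower, and 0 muscle markers in either direction. Here too the share of all genes at that threshold was not counted. Of 8 adipocyte markers 2 were higher in residual cells, Retn and Lpl. Retn read only 3.71 to 4.25 on the residual arrays, below their olfactory percentile of 4.34 to 4.38. S100b and Sox10, genes known from Schwann cells, also rose in residual cells, by 4.59 and 1.14 (adjusted p = 8.53e-05 and 0.00469). S100b had means of 5.86, 10.45 and 8.20 in the primary, residual and recurrent groups, and its recurrent level passed against primary cells (adjusted p = 0.0206). Of 12 luminal markers 1 rose (Cldn4) and 3 fell (Krt8, Krt18 and Cldn3) in residual cells. Cldn4 was near background, at 4.24, 4.56 and 4.90 on the residual arrays. Of 10 basal markers 2 rose (Krt14 and Lamb3) and 2 fell (Itga6 and Itgb4). Marker genes were named after their values were seen. The part of these cell types in the collagen levels was not tested.

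**Figure D5:**
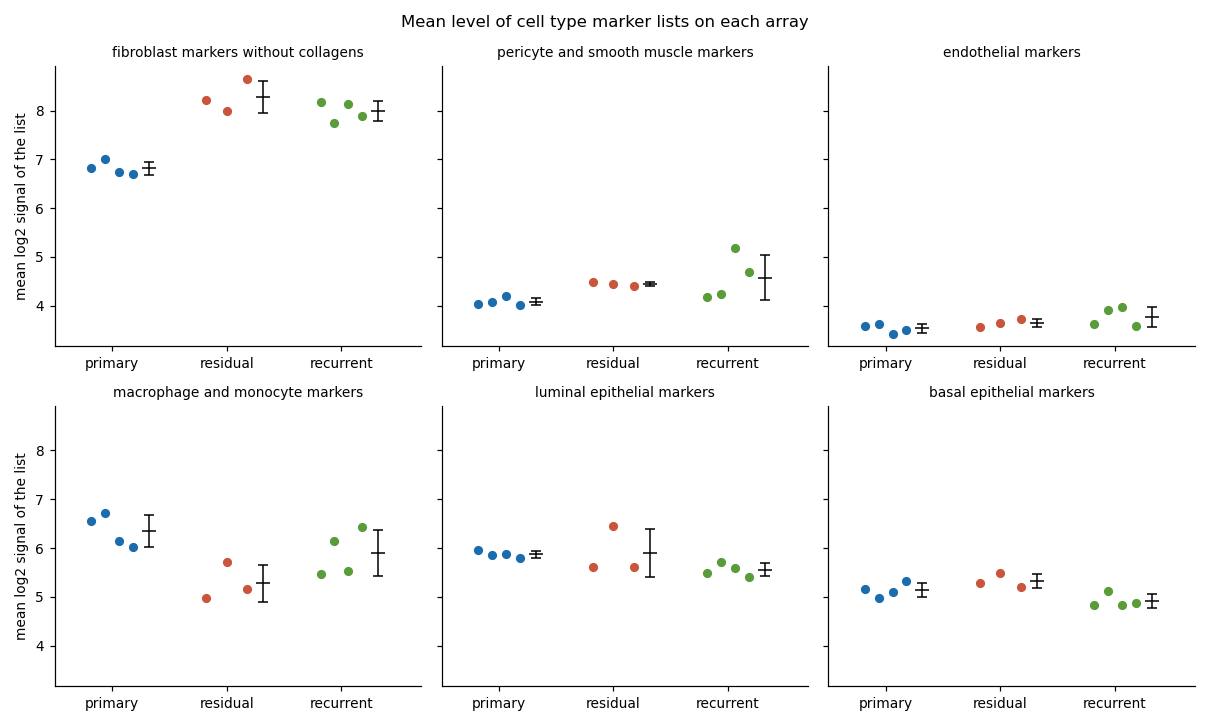
Mean log2 signal of 6 marker lists on each of the 11 arrays, with group mean and SD as black bars. The fibroblast list lies between 6.70 and 7.01 on primary arrays and at 7.75 or above on all residual and recurrent arrays, and the macrophage list is lower on the residual arrays (4.97 to 5.71) than on the primary arrays (6.02 to 6.71).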

How the data were processed

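The authors deposited 1 table of log2 signals from Affymetrix arrays of biotin-labelled cRNA, 24479 probe sets by 11 arrays, made with RMA and R 3.0.2 per the submitters' processing notes. RMA corrects background, normalizes across arrays and compresses differences between dim signals. The values (1.10 to 13.34) were used as deposited. The sources used here give no version of the probe annotation, and no batch was used.

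Of the rows 23281 were named by the platform table and 556 through their Entrez identifier in the GRCm38.p6 table, and 642 had no name and were not tested. Where 2 rows shared a symbol the brighter was kept, leaving 23835 genes. A model of 3 groups was fitted to all 11 arrays with limma 3.58.1 in R 4.3.3 (8 residual and 3.46 prior degrees of freedom). The moderated tests were two-sided, with Benjamini-Hochberg adjustment over all genes, and called at an adjusted p under 0.05.

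Values per array are given for members called with a 2-fold or larger change and for 11 chosen collagens. Of each pathway list up to 4 called genes with the smallest p are named. The counts of 1 marker list are not reported here. The members, lists and this rule were chosen with earlier results of these data known. Alternatives were fits on the groups compared, a replicate block, centring, scaling, quantile normalization, a filter on dim genes (95th percentile of olfactory receptor genes, at least 3 arrays), trend with robust variances, array weights (statmod 1.5.0), a stricter threshold and leaving out each array. Figures used matplotlib 3.10.9 in Python 3.11.15.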

Additional observations from a re-analysis of the deposited data

Results flagged for a closer look

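Of the collagens, 15 were looked at in the primary and in the recurrent group for a single array far from the others of its group, by the gap to the nearest array over the whole range, which made 30 groups of values. Chance alone would mark about 1 in 20 groups. Col4a1 read 7.56 on recurrent 4, where the other recurrent arrays read 6.49 to 6.66. Col17a1 read 4.80 on primary 4 beside 4.48 to 4.49. Col23a1 read 4.74 on recurrent 2 beside 5.15 to 5.17. The residual group has 3 arrays and was not examined in this way.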

How the results depend on the processing

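No called collagen changed direction under any of the 19 settings tried for single genes, and 13 of the 20 calls stayed past the threshold in all of them: Col1a2, Col3a1, Col5a2, Col6a1, Col6a2, Col8a1, Col11a1, Col12a1, Col18a1 and Col23a1 in residual against primary cells, Col3a1 and Col6a1 in recurrent against primary cells, and Col18a1 in recurrent against residual cells. In residual against primary cells the number called higher, 10, stayed between 9 and 12, and the number called lower, 1, was 1 to 2 with single arrays left out, 2 without residual 1 or residual 3. The number higher in recurrent against primary cells, 4, became 7 with array weights and 2 at an adjusted p under 0.01, and 2 to 6 with single arrays left out, 2 without primary 3 or primary 4. The number higher in recurrent against residual cells, 2, became 1 with only those groups in the fit, with the replicate block, quantile-normalized again, scaled to one interquartile range, with array weights and at an adjusted p under 0.01, and was 1 to 2 with single arrays left out. The number lower there, 3, became 1 with only those groups or with array weights and 0 at an adjusted p under 0.01, and was 1 to 3 with single arrays left out, 1 without residual 1, residual 2, residual 3, recurrent 1 or recurrent 2. The cause of these changes was not tested. The filter on dim genes kept Col11a1 and Col14a1 through arrays of the later groups, as their primary means lay below the olfactory percentile. For them that setting is no separate support. Over all genes the deviations of arrays with the same replicate number had correlations of -0.08 to 0.02, which gave no sign of pairing. A link in few genes would not show in this check, and the labels name no pairing. With the replicate block Col6a3, Col8a1 and Col23a1 lost their calls in recurrent against residual cells (adjusted p = 0.0907, 0.103 and 0.115), and Col6a2 gained one there (0.0481), as did Col5a1 in residual (0.0280) and Col5a2 in recurrent cells against primary cells (0.0409). The number of arrays and signals near background limit the precision.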
